A study of Mus musculus with 8 samples.

Results

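The genes described here are the lysosome genes of the KEGG annotation in a table of RNA sequencing values, taken without the cathepsins. Members were the rows whose KEGG pathway column has an entry starting with "Lysosome". Of 126 such rows, 12 that also belong to sphingolipid metabolism, 12 cathepsins and the genes Cd63, Cd68, Slc11a1 and Slc11a2 were left out, which leaves 98 of the 18473 genes in the table. All 98 are protein-coding. The rule uses no measured value. The samples are 8 mouse libraries, 4 whose titles begin with EXO and 4 with LPS, numbered as replicates 1 to 4 in each group. The design text says that macrophages were treated with ADSC-Exos, probably vesicles shed by stem cells of fat tissue, and asks about macrophage polarization. LPS probably means lipopolysaccharide, the endotoxin of Gram-negative bacteria. The labels give no dose, no time and no statement of whether the EXO cells also received LPS, and untreated cells are not analysed here.

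Every sample is labelled as MLE-12, an epithelial cell line derived from mouse lung, but with a different cell line registry number in each. The few epithelial markers analysed were at or near 0, which alone does not settle which cells were sequenced. Of 12 epithelial markers, the 2 in the table, Ocln and Elf3, summed to between 0 and 0.0133 FPKM in EXO and between 0 and 0.0233 in LPS, and the others are not analysed here. All 12 general macrophage markers were in the table, and 11 had a mean of at least 1 FPKM. FPKM counts sequenced fragments per unit of gene length and of library depth. Most of the macrophage markers were themselves lower in EXO. The summed level of the 12 was 5778 to 7346 FPKM in the EXO group and 10443 to 21701 in the LPS group. Lyz2 alone averaged 3357 FPKM in EXO and 9969 in LPS. Of 11 markers tested, 10 fell, against 24.7% of all genes tested. Cd14 was not called, and Itgam was called lower with overlapping groups. Cd68, also lower, is one of the lysosome rows left out above. Stromal markers, 5 of 9 in the table, summed to at most 0.605 and 0.632 FPKM in EXO and LPS libraries, and neutrophil markers, 4 of 8, to at most 7.29 and 11.6. Alveolar macrophage markers, 6 of 10, summed to 4.82 to 8.28 FPKM in EXO and 9.42 to 15.4 in LPS, with Siglecf at or near 0. Alveolar type 2 markers, 5 of 11, summed to 45.1 to 55.7 and 67.7 to 104 FPKM. Most of that was Napsa, which is also a lysosome member. Each lysosome result below stands beside this lower level of macrophage markers, whose part in it was not tested. In bulk RNA, fewer cells of a type and less RNA per cell cannot be told apart.

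Lysosomes are acidic organelles in which macrophages digest what they take up by phagocytosis and endocytosis. A proton pump, the vacuolar ATPase (V-ATPase), acidifies the lumen. Soluble hydrolases are tagged with mannose 6-phosphate in the Golgi, bound by receptors and carried to endosomes in vesicles coated with clathrin and adaptor proteins (AP complexes and GGAs). Heavily glycosylated membrane proteins line the organelle, and transporters export the digestion products. Many lysosomal genes are known targets of the MiT transcription factors (Tfeb, Tfe3, Mitf and Tfec), which bind an E-box in promoters, the CLEAR element.

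Of the 98 lysosome genes, 84 passed the filter on low values (4 or more libraries with 1 FPKM or above), and 82 of these had at least 1 FPKM in all 8 libraries. The other two, Sort1 and Sgsh, reached 1 FPKM in 4 libraries each. The 84 were tested within one fit over 9812 genes, with limma on log2(FPKM + 1) and Benjamini-Hochberg adjusted p-values, and called at an adjusted p under 0.05. In EXO, 44 of the 84 (52.4%) were lower and 9 (10.7%) were higher than in LPS, and 31 were not called. Over all genes tested, 24.7% were lower and 33.7% were higher. The median log2 fold change, EXO minus LPS, was -0.41 for the lysosome genes and 0.09 for all tested genes. On the log2(FPKM + 1) scale they ran from -1.63 for Lipa to 1.35 for Ap1s3, but with a pseudocount of 0.1 Sort1 (-2.53) and Ids (-1.84) lay below Lipa (-1.65), as they did by voom. Of those called, 11 had a log2 fold change of -1 or below and 1 of 1 or above. EXO libraries all lay below every LPS library in 41 of the 84 and all above in 10, against 22.1% and 29.1% of all genes tested. The 98 genes together held 0.378% to 0.435% of the summed FPKM of an EXO library and 0.628% to 0.66% of an LPS library. Adding 1 before the logarithm shrinks the fold changes of low genes, so levels in FPKM are given first. Means are ± SD (n = 4), the EXO mean before the LPS mean, and values of single libraries run from replicate 1 to 4. A difference called log2 is EXO minus LPS of log2(FPKM + 1).

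**Figure D1:**
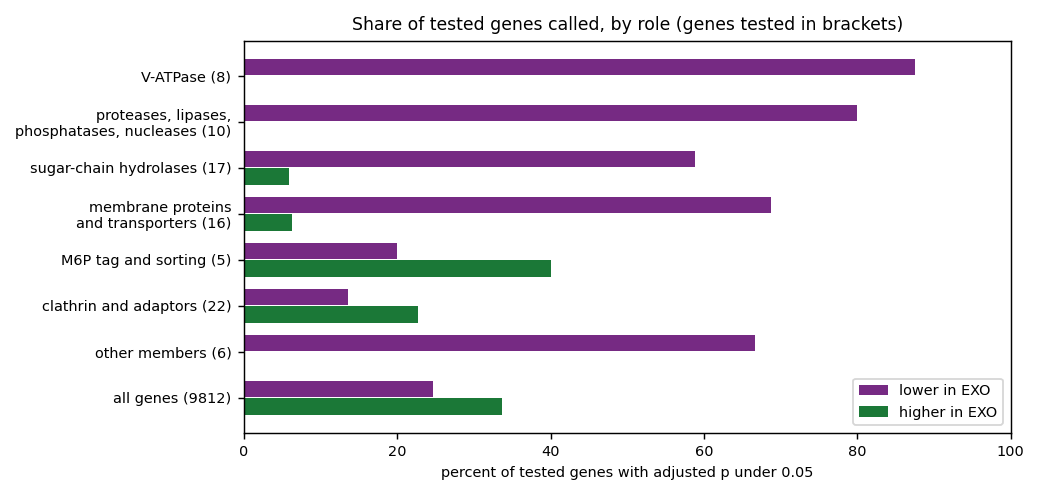
Horizontal bars give the percent of tested genes called lower (purple) or higher (green) in EXO at a limma adjusted p under 0.05, for each role among the lysosome genes and for all 9812 genes; the number tested is in brackets. V-ATPase genes had 87.5% lower and none higher, clathrin and adaptor genes 13.6% lower and 22.7% higher, and all genes 24.7% and 33.7%.

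By role, lower in EXO were 7 of 8 tested V-ATPase genes, 8 of 10 proteases, lipases, phosphatases and nucleases, 10 of 17 genes of sugar chain degradation and 11 of 16 membrane proteins and transporters. Among 22 clathrin and adaptor genes, 3 were lower, 5 higher and 14 not called (median log2 fold change -0.04). The shares over all genes tested were 24.7% lower and 33.7% higher, and no difference between roles was tested. The plot of fold changes shows them by gene.

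**Figure D2:**
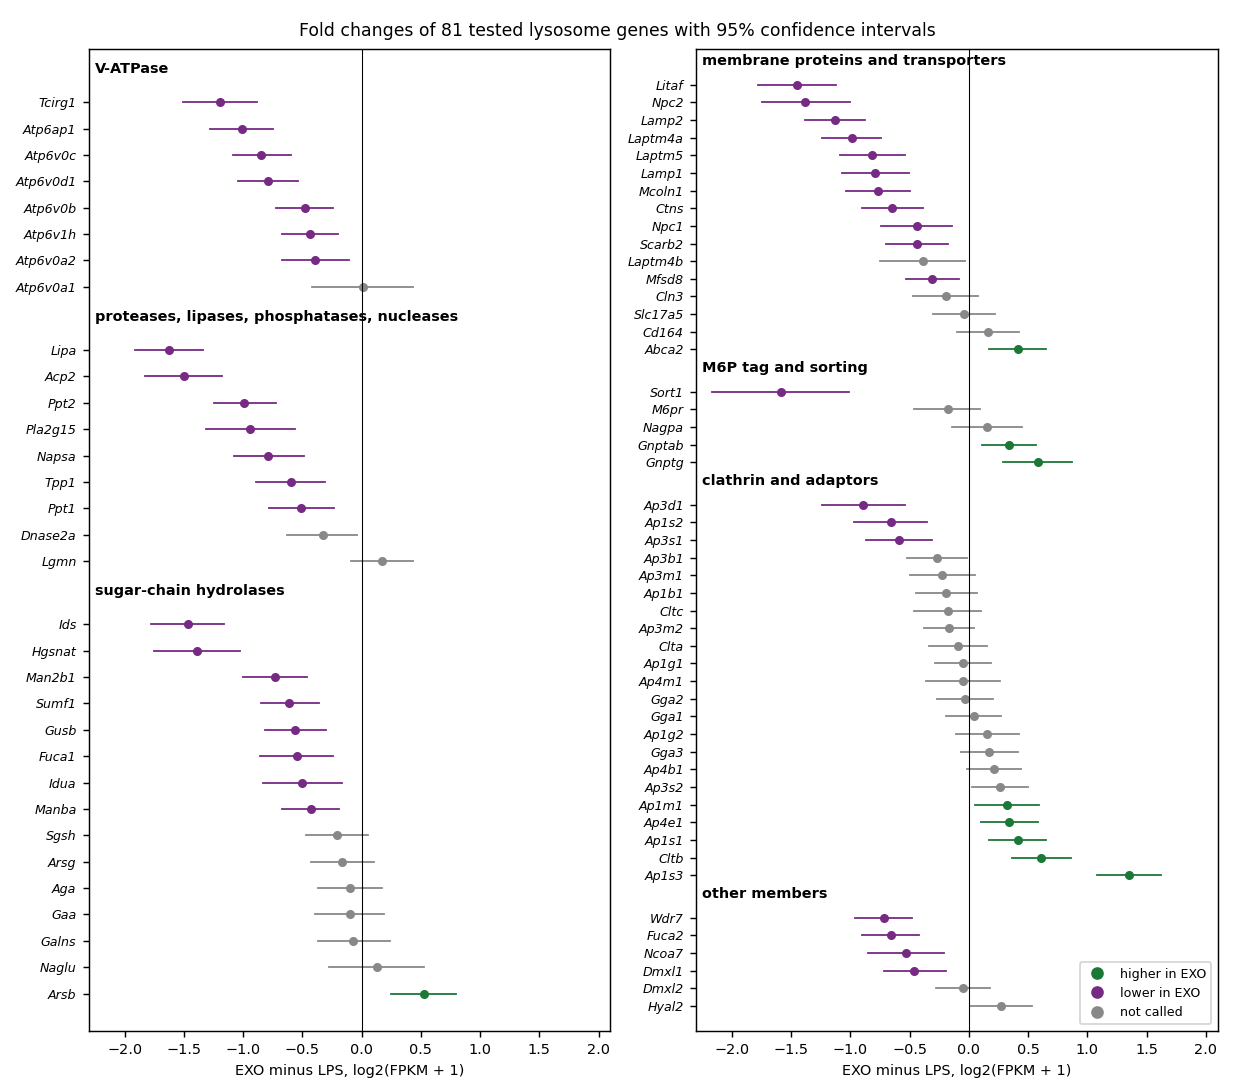
Points give the difference in log2(FPKM + 1), EXO minus LPS, of 81 tested lysosome genes with its 95% confidence interval, grouped by role; purple marks genes lower in EXO, green genes higher in EXO and grey genes not called. Lipa, at -1.63, is the lowest on this scale and Ap1s3, at 1.35, the highest.

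RefSeq promoter windows (GRCm38.p6, 250 bases before to 50 after a gene's start) were found for 78 of the 98 lysosome genes. They were searched for TCACGTGA and for the E-box core CACGTG inside it. Each is its own reverse complement, so a search covers both strands. TCACGTGA was present for 7 of the 78 genes (8.97%), against 2.54% of 7989 tested genes with a window and 1.12% of all 27025 genes of the RefSeq table. CACGTG was present for 17 of the 78 (21.8%), against 12.6% and 8.09%. A longer form, with G before and C after the TCACGTGA, was present in Cln3 and Igf2r, 2.56% of the 78, against 0.964% of tested genes. Matches were not limited to genes that fell. TCACGTGA occurred in 3 of 32 lower members, 1 of 8 higher members and 2 of 26 members not called. A match describes letters in a window and not a bound site. The 4 called genes that hold it and Cln3, which holds the longer form, are printed to show where it lies, with TCACGTGA in capitals. The windows are chr8:3500269-3500568 on the plus strand for Mcoln1, chr8:105566015-105566314 on the minus strand for Atp6v0d1, chr6:108185534-108185833 on the minus strand for Sumf1, chr17:25240091-25240390 on the minus strand for Gnptg and chr7:126583187-126583486 on the minus strand for Cln3.
Mcoln1: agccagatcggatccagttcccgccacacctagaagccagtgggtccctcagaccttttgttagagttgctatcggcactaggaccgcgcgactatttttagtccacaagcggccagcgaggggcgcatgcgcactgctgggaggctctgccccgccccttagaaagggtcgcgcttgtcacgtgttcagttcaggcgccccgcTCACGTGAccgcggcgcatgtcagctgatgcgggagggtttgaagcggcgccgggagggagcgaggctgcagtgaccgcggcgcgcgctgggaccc
Atp6v0d1: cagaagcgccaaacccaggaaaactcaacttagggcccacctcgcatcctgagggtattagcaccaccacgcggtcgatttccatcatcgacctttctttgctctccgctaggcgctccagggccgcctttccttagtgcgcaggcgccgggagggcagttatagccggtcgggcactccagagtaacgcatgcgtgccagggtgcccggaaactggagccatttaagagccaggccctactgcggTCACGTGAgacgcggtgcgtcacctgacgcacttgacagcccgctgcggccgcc
Sumf1: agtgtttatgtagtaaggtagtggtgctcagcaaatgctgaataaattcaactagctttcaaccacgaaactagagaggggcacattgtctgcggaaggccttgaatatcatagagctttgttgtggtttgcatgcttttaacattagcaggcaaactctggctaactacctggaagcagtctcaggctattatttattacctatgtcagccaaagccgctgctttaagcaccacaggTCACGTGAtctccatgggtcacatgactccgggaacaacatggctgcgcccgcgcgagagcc
Gnptg: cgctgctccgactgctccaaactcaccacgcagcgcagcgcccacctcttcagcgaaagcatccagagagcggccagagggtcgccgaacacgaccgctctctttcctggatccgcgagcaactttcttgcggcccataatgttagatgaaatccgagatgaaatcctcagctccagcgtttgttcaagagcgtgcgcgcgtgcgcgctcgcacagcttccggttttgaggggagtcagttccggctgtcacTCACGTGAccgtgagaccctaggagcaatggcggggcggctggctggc
Cln3: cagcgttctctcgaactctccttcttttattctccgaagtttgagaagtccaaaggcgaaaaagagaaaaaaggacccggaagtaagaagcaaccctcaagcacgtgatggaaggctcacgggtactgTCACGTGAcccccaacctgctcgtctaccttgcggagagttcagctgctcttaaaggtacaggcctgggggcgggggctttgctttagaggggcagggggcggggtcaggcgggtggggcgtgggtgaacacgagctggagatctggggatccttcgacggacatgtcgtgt
The match begins 46, 4, 12 and 122 bases before the annotated start in Mcoln1, Atp6v0d1, Sumf1 and Cln3. In Gnptg it begins 2 bases after it. The Mcoln1 and Cln3 windows each hold 2 copies of the core.

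The proton pump was lower in EXO at most of its subunits. Tcirg1 (Entrez gene 27060), the a3 subunit of the membrane sector that is abundant in osteoclasts and macrophages, stood at 16.3, 25.7, 16.2 and 23.1 FPKM in EXO replicates 1 to 4 and at 44.6, 52.7, 47.5 and 43.6 in LPS replicates 1 to 4. Every EXO library lay below every LPS library (-1.2 log2 with an SE of 0.15 and an adjusted p of 1.26e-05 by limma). The accessory subunit Atp6ap1 (Entrez gene 54411) stood at 20.1, 29.4, 22.8 and 24.7 FPKM in EXO and 45.7, 50.1, 52.4 and 50.3 in LPS (-1.01 log2 with an SE of 0.12 and an adjusted p of 1.05e-05 by limma). Atp6v0c (Entrez gene 11984) encodes the proteolipid that forms most of the rotating ring. Its level was 215, 228, 207 and 234 FPKM in EXO and 402, 425, 437 and 335 in LPS, without overlap (-0.85 log2 with an SE of 0.11 and an adjusted p of 2.51e-05 by limma). Atp6v0d1, which couples the ring to the stalk, averaged 63.2 ± 6.26 and 110 ± 12 FPKM (log2 fold change -0.79). Atp6v0b, a second ring protein, averaged 167 ± 14.5 and 234 ± 23.7 FPKM, and Atp6v1h, a regulatory subunit of the cytosolic sector, 27 ± 0.976 and 37 ± 3.82. Both fell, by 0.48 and 0.44 on the log2 scale, and their groups did not overlap.

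The a subunits, which place the pump in different membranes, gave different calls. Atp6v0a2 was called lower at 4.42 ± 0.587 and 6.13 ± 1.13 FPKM (limma adjusted p = 0.0188), a call lost when EXO replicate 1 was left out (limma adjusted p = 0.0584) and when EXO replicate 2 and LPS replicate 4 both were (0.0898). Atp6v0a1 stood at 7.67, 7.78, 7.59 and 10.1 FPKM in EXO and at 5.73, 6.62, 9.0 and 12.9 in LPS. Its LPS values enclosed the EXO values, and it was not called (0.01 log2, 95% confidence interval -0.42 to 0.43, adjusted p of 0.983 by limma). Atp6v0a4, known from kidney, was listed at 0 in all libraries. Tcirg1 made up 58.4, 68.5, 55.9 and 61.4 percent of the summed FPKM of the a subunits in EXO replicates 1 to 4 and 79.8, 81.7, 76 and 67.9 percent in LPS replicates 1 to 4. The means differed by -15.3 percentage points, EXO minus LPS, and EXO replicate 2 overlapped with LPS replicate 4. This share was chosen after the values were seen and is given as a description. Atp6v0d2, a paralog of Atp6v0d1 known from osteoclasts and alveolar macrophages, stayed below 1 FPKM everywhere, at 0, 0.094, 0.0397 and 0.119 in EXO and 0.459, 0.817, 0.501 and 0.124 in LPS, on at most 129 fragments.

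Subunits of the pump that the KEGG lysosome list does not hold were counted in the same fit, where 24.7% of all genes were lower and 33.7% higher. Of 9 tested genes for the remaining V-ATPase subunits and Atp6ap2, 6 fell and none rose, with a median of -0.88. Atp6v1e1, a stalk subunit, averaged 88.3 ± 3.28 in EXO and 187 ± 31.3 in LPS, Atp6v1b2, a subunit of the catalytic head, 88.7 ± 6.14 and 170.4 ± 10.8, and Atp6v1a, the ATP-hydrolysing subunit, 60.6 ± 7.6 and 119 ± 13.1. Among the lysosome members known to regulate or assemble the pump, Wdr7 stood at 3.77, 4.56, 4.16 and 4.37 FPKM in EXO and 7.15, 6.85, 8.67 and 7.79 in LPS (-0.72 log2 with an SE of 0.11 and an adjusted p of 7.95e-05 by limma). Its partner Dmxl1 averaged 3.21 ± 0.471 and 4.77 ± 0.675 and fell by 0.46 on the log2 scale, while the paralog Dmxl2 averaged 2.38 ± 0.339 and 2.49 ± 0.128 and was not called (-0.05 log2, 95% confidence interval -0.28 to 0.18, adjusted p of 0.702 by limma). Ncoa7, a TLDc-domain protein that interacts with the pump, averaged 2.27 ± 0.674 and 3.68 ± 0.688 and was lower, with EXO replicate 2, at 3.21 FPKM, inside the LPS range.

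Lipases, phosphatases and proteases of the lumen were mostly lower in EXO. Lipa (Entrez gene 16889), the acid lipase that frees cholesterol and fatty acids from lipoprotein lipids, stood at 30.8, 48.2, 35.9 and 37.6 FPKM in EXO and 109, 129.6, 122 and 113 in LPS. The groups were far apart, the LPS mean being 3.11 times the EXO mean (-1.63 log2 with an SE of 0.13 and an adjusted p of 3.48e-07 by limma). Acp2 (Entrez gene 11432), the lysosomal acid phosphatase, stood at 8.11, 12.4, 8.68 and 8.24 FPKM in EXO and 31.6, 33.2, 26.1 and 22.3 in LPS (-1.5 log2 with an SE of 0.15 and an adjusted p of 2.38e-06 by limma). EXO replicate 2 was the highest EXO library for both genes. Ppt2, a thioesterase, averaged 12.7 ± 1.91 and 26 ± 2.1 FPKM (log2 fold change -0.99), although 43.1% of its exonic bases lie in exons of another annotated gene on the same strand. Its relative Ppt1, which removes palmitate from proteins, averaged 31.1 ± 5.91 and 44.1 ± 1.86 and was also lower (log2 fold change -0.51). Napsa, an aspartic protease, stood at 29.5, 34.5, 30.4 and 35.7 FPKM in EXO and 75.3, 54.3, 52.4 and 48.1 in LPS, with LPS replicate 1 the highest (-0.79 log2 with an SE of 0.14 and an adjusted p of 2.47e-04 by limma).

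The remaining members of this role mostly fell too. Pla2g15, the lysosomal phospholipase A2, averaged 3.89 ± 1.11 and 8.29 ± 1.79, and Tpp1, a tripeptidyl peptidase, 24.1 ± 4.89 and 36.7 ± 2.59. Both were lower without overlap between the groups. Lgmn, the asparaginyl endopeptidase that also processes cathepsins, was not called, at 85.3, 105, 84.2 and 111 FPKM in EXO and 78, 83, 92.7 and 86.2 in LPS (0.17 log2, 95% confidence interval -0.09 to 0.43, adjusted p of 0.236 by limma). Dnase2a, the acid DNase, averaged 28.8 ± 2.3 and 36.9 ± 6.83 (limma adjusted p = 0.0513). LPS replicate 4, at 27.3 FPKM, lay inside the EXO range, and Dnase2a was called lower when that library or EXO replicate 2 was left out, under rescaling, under the stricter filter, with the replicate block and by voom. Lgmn and Dnase2a were named after their values were seen.

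**Figure D3:**
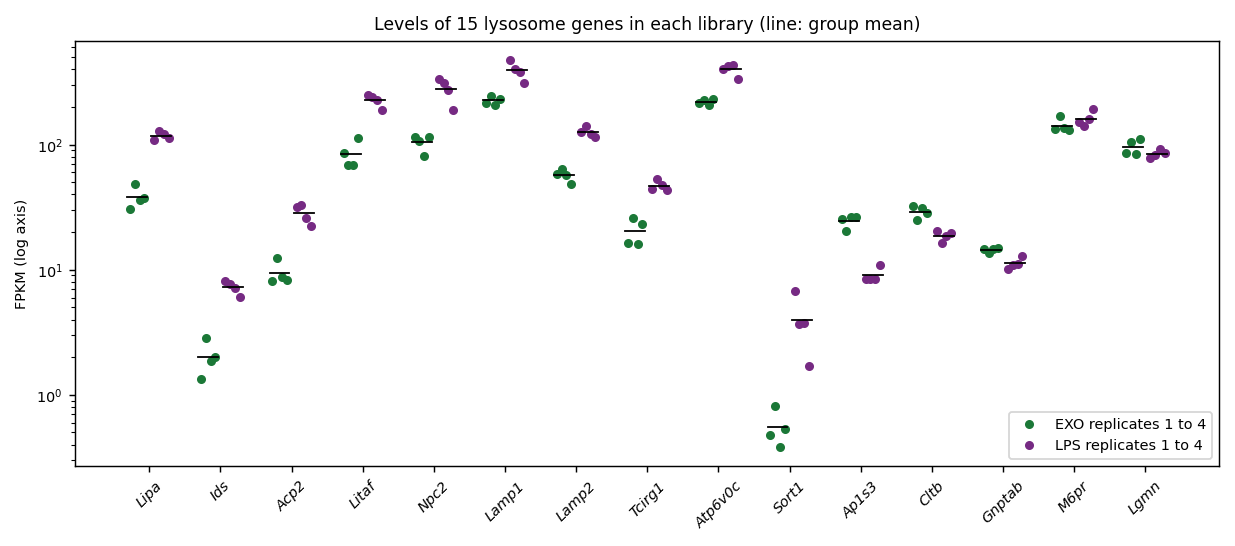
Points give the FPKM (log axis) of 15 lysosome genes in each of the 4 EXO (green) and 4 LPS (purple) libraries, and the line is the group mean. From Lipa to Sort1 the LPS points lie above all EXO points, for Ap1s3, Cltb and Gnptab below them, and for M6pr and Lgmn the groups overlap.

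Ids (Entrez gene 15931), the iduronate sulfatase of heparan and dermatan sulfate, stood at 1.34, 2.85, 1.86 and 2.0 FPKM in EXO and 8.17, 7.67, 7.21 and 6.01 in LPS (-1.47 log2 with an SE of 0.15 and an adjusted p of 2.00e-06 by limma). Hgsnat, the membrane enzyme that acetylates heparan sulfate before its cleavage, stood at 6.66, 8.88, 8.31 and 9.18 and 32.3, 24, 22.1 and 16.6 (-1.39 log2 with an SE of 0.17 and an adjusted p of 1.30e-05 by limma). In both genes all EXO libraries lay below all LPS libraries, and LPS replicate 4 was the lowest of its group. Of the other enzymes that act on heparan sulfate, Gusb averaged 21 ± 2.44 and 31.3 ± 3.4 FPKM in EXO and LPS and Idua 2.21 ± 0.874 and 3.42 ± 0.156, and both were lower. Naglu, at 8.67 ± 2.95 and 7.59 ± 0.985, Arsg, at 5.23 ± 0.897 and 5.94 ± 0.34, and Sgsh, at 1.0 ± 0.184 and 1.34 ± 0.341, were not called. The call of Idua was lost with EXO replicate 1 left out (limma adjusted p = 0.0551) and with all genes tested (0.053).

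Several glycosidases of glycoproteins were lower. Man2b1, the lysosomal alpha-mannosidase, stood at 7.07, 9.15, 7.22 and 8.62 FPKM in EXO and 16.2, 14.5, 13.8 and 11.5 in LPS (-0.73 log2 with an SE of 0.13 and an adjusted p of 2.19e-04 by limma). The fucosidase Fuca1 averaged 24.1 ± 2.3 and 36.3 ± 7.43 and its paralog Fuca2 6.82 ± 0.577 and 11.4 ± 1.0, with log2 fold changes of -0.55 and -0.66. Fuca1 in LPS replicate 4, at 26.4 FPKM, lay inside the EXO range. Manba, the beta-mannosidase, fell by 0.43 on the log2 scale. Gaa, the acid alpha-glucosidase of glycogen, averaged 15.1 ± 1.51 and 16.4 ± 3.18 and Aga 7.49 ± 1.37 and 8.01 ± 0.591, and neither was called.

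Sulfatases depend on Sumf1, which converts a cysteine in their active site in the endoplasmic reticulum. Sumf1 averaged 14.2 ± 1.44 and 22.2 ± 1.92 FPKM and fell (log2 fold change -0.61). Arsb (Entrez gene 11881), the sulfatase of dermatan and chondroitin sulfate, was the one tested gene of this role that rose. It stood at 6.56, 6.66, 5.2 and 8.27 FPKM in EXO and 4.52, 3.97, 3.99 and 4.62 in LPS, with all EXO libraries above all LPS libraries (0.53 log2 with an SE of 0.13 and an adjusted p of 0.00266 by limma). Of its annotated exonic bases, 48.2% also lie in exons of a gene on the opposite strand, and without a stated strand setting the reads of such a pair cannot be told apart.

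Membrane proteins and transporters, with the soluble Npc2 counted among them, were lower in EXO in 11 of 16 tested cases (68.8%). The share over all genes tested was 24.7%. Litaf (Entrez gene 56722), an endosomal membrane protein first described as induced by LPS, stood at 85.1, 68.9, 68.9 and 113 FPKM in EXO and 249, 242, 227 and 191 in LPS (-1.45 log2 with an SE of 0.15 and an adjusted p of 3.86e-06 by limma). Npc2 (Entrez gene 67963), which hands cholesterol to Npc1 for export, stood at 115, 107, 81.1 and 115 in EXO and 337, 311, 272 and 188 in LPS (-1.38 log2 with an SE of 0.17 and an adjusted p of 2.00e-05 by limma). The groups were separate in both. Npc1 itself averaged 8.88 ± 1.55 and 12.4 ± 1.86 and was lower (log2 fold change -0.44), with a call lost when EXO replicate 1 was left out (limma adjusted p = 0.0552).

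The LAMP proteins coat the inner face of the lysosomal membrane. Lamp1 stood at 216, 246, 208 and 233 FPKM in EXO and 475, 405, 381 and 313 in LPS (-0.79 log2 with an SE of 0.13 and an adjusted p of 1.41e-04 by limma), and Lamp2, which also acts in chaperone-mediated autophagy, at 58.2, 64.2, 57.7 and 48.6 and 127, 140.3, 122 and 115 (-1.13 log2 with an SE of 0.12 and an adjusted p of 2.56e-06 by limma). Neither overlapped between groups. Lamp3, the dendritic cell and type 2 pneumocyte member, stayed at or below 0.137 FPKM in all libraries. Scarb2, the receptor that carries beta-glucocerebrosidase to lysosomes, averaged 8.5 ± 1.43 and 11.8 ± 0.713 and fell by 0.44 on the log2 scale.

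Of the LAPTM proteins, Laptm4a stood at 43.6, 46.2, 36.5 and 40.9 FPKM in EXO and 94.7, 82.3, 85.6 and 73.4 in LPS (-0.99 log2 with an SE of 0.12 and an adjusted p of 8.49e-06 by limma). Laptm5, a protein of blood cells, averaged 102 ± 13.4 and 180.3 ± 24.7 and was lower. Laptm4b averaged 1.78 ± 0.831 and 2.55 ± 0.29 and was not called (limma adjusted p = 0.0578), with EXO replicate 4, at 2.94 FPKM, above 3 of the 4 LPS libraries. Among transporters and channels, Mcoln1, a calcium release channel, averaged 8.65 ± 1.31 and 15.4 ± 1.54, and Ctns, the cystine exporter, 3.33 ± 0.096 and 5.83 ± 1.02, both lower without overlap. Mfsd8 averaged 1.89 ± 0.146 and 2.58 ± 0.318, a call lost with EXO replicate 4 or LPS replicate 4 left out (limma adjusted p of 0.0634 and 0.0596). Abca2, a lipid transporter, was the one that rose, from 1.88, 1.41, 1.32 and 1.48 FPKM in LPS to 1.99, 2.56, 2.19 and 2.63 in EXO (0.41 log2 with an SE of 0.11 and an adjusted p of 0.00636 by limma). Cln3, Slc17a5 (the sialic acid exporter) and Cd164 (a sialomucin) were not called.

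The tagging enzymes and sorting receptors moved in both directions. Gnptab (Entrez gene 432486), which encodes the catalytic subunits of the phosphotransferase that starts the mannose 6-phosphate tag, stood at 14.6, 13.7, 14.7 and 14.9 FPKM in EXO and 10.2, 10.9, 11.1 and 12.9 in LPS, all EXO libraries above all LPS libraries (0.34 log2 with an SE of 0.11 and an adjusted p of 0.0154 by limma). Gnptg, its gamma subunit, stood at 2.56, 3.66, 2.95 and 2.87 and 1.68, 1.1, 1.89 and 2.12, also without overlap (0.58 log2 with an SE of 0.13 and an adjusted p of 0.00203 by limma). Of the exonic bases of Gnptg, 49.5% lie opposite exons of Unkl, whose own level was at most 0.306 FPKM. Without a stated strand setting the reads of this pair cannot be told apart either, and both levels depend on it. Nagpa, which uncovers the tag, averaged 7.27 ± 0.736 and 6.51 ± 1.52 and was not called. Of the receptors, M6pr stood at 133, 169, 136 and 131 FPKM in EXO and 151, 142, 160.4 and 194 in LPS, overlapping and not called (-0.18 log2, 95% confidence interval -0.46 to 0.09, adjusted p of 0.223 by limma). Igf2r, the cation-independent receptor, stood at 0.0922 to 0.142 FPKM in EXO and 0.0693 to 0.206 in LPS and was below the filter.

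Sort1 (Entrez gene 20661), sortilin, which sorts several hydrolases independently of the tag, had the widest ratio of means among the called members. It stood at 0.478, 0.81, 0.383 and 0.537 FPKM in EXO and 6.73, 3.7, 3.77 and 1.71 in LPS, where the mean was 7.21 times as high (-1.59 log2 with an SE of 0.26 and an adjusted p of 4.50e-04 by limma). LPS replicate 1 was the highest and replicate 4 the lowest, and no EXO library reached either. Sort1 passed the filter on low values through its LPS libraries alone, so it could pass only as a gene high there.

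Among the adaptors, the sigma subunits of AP-1 changed in opposite directions. Ap1s3 (Entrez gene 252903), a sigma subunit of AP-1, the adaptor between Golgi and endosomes, stood at 25.4, 20.3, 26.4 and 26.4 FPKM in EXO and 8.4, 8.46, 8.44 and 10.9 in LPS. The EXO mean was 2.72 times the LPS mean, with no overlap (1.35 log2 with an SE of 0.13 and an adjusted p of 1.07e-06 by limma). Its paralog Ap1s1 stood at 92.7, 74.2, 94.3 and 80.2 and 63, 59.7, 67.5 and 64.4, also higher in EXO (0.41 log2 with an SE of 0.11 and an adjusted p of 0.00582 by limma). The third, Ap1s2, went the other way, at 5.25, 6.19, 6.51 and 5.31 in EXO and 12.5, 10.1, 9.79 and 7.21 in LPS (-0.66 log2 with an SE of 0.14 and an adjusted p of 0.00124 by limma). As a description, chosen like the other shares after the values were seen, Ap1s3 held 20.6, 20.1, 20.8 and 23.6 percent of the summed sigma FPKM in EXO replicates 1 to 4 and 10, 10.8, 9.84 and 13.2 percent in LPS replicates 1 to 4. The difference was 10.3 percentage points, without overlap.

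**Figure D4:**
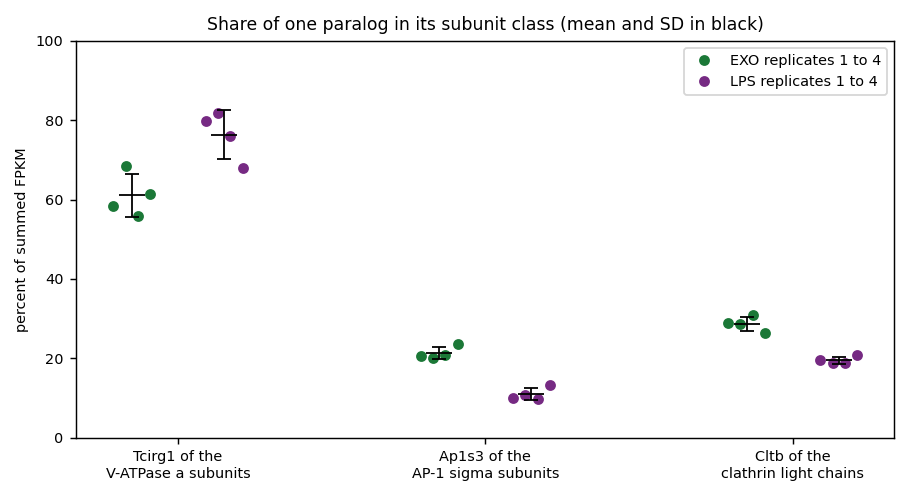
Points give, for each of the 4 EXO (green) and 4 LPS (purple) libraries, the percent of the summed FPKM of a subunit class held by one paralog, with mean and SD in black. The groups are apart for Ap1s3 (21.3 against 11.0 percent) and Cltb (28.6 against 19.4 percent) and touch for Tcirg1 (61.0 against 76.3 percent).

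Clathrin triskelia carry either of a pair of light chains. Cltb (Entrez gene 74325) stood at 32.1, 24.8, 31.2 and 28.3 FPKM in EXO and 20.3, 16.4, 18.6 and 19.5 in LPS (0.61 log2 with an SE of 0.12 and an adjusted p of 5.13e-04 by limma), while Clta stood at 79.3, 62.2, 69.9 and 79.4 and 83.8, 70.4, 80.9 and 74.3 and was not called (-0.09 log2, 95% confidence interval -0.34 to 0.15, adjusted p of 0.508 by limma). Cltb held 28.6 ± 1.88 percent of the light chain FPKM in EXO and 19.4 ± 0.94 in LPS, with no overlap. The heavy chain Cltc averaged 72.4 ± 8.3 and 82.5 ± 12.8 and was not called.

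AP-3 carries membrane proteins to lysosomes and related organelles. Of its tested subunits, 2 were lower, Ap3d1 and Ap3s1, and Ap3b1, Ap3m1, Ap3m2 and Ap3s2 were not called. Among all genes tested, 24.7% were lower. Ap3d1, the delta subunit, stood at 9.15, 6.28, 11.4 and 8.13 FPKM in EXO and 14.6, 14.7, 17.5 and 20.8 in LPS (-0.89 log2 with an SE of 0.16 and an adjusted p of 3.34e-04 by limma), and Ap3s1, a sigma subunit, averaged 70.4 ± 10.8 and 106 ± 11.2 (log2 fold change -0.59). The other sigma subunit, Ap3s2, averaged 11.2 ± 1.06 and 9.13 ± 0.589 and missed the threshold (limma adjusted p = 0.0511). In AP-4, Ap4e1 averaged 2.97 ± 0.305 and 2.13 ± 0.30 and rose, with a limma adjusted p of 0.051 without LPS replicate 3. Ap1m1, at 12.7 ± 1.49 and 10 ± 1.49, was called higher (limma adjusted p = 0.0415). That call was lost with any library left out other than EXO replicate 2 or LPS replicate 4 (0.0611 to 0.123), under median-of-ratios rescaling (0.0701) and with all genes tested (0.0709). The GGA adaptors Gga1, Gga2 and Gga3 averaged 16.2 ± 1.2 and 15.7 ± 1.16, 10.3 ± 0.287 and 10.6 ± 1.17 and 7.5 ± 0.679 and 6.55 ± 0.572, and none was called.

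The 14 lysosome genes below the filter reached at most 0.817 FPKM in any library. Atp6v0a4 alone was listed at 0 throughout, and Hyal6 rested on 1 fragment in 1 library. The hyaluronidases Hyal1 and Hyal3, the osteoclast phosphatase Acp5, the epithelial adaptor subunit Ap1m2, the neuronal Ap3b2, Ap4s1, Abcb9, Entpd4 and Entpd4b completed this group with Igf2r, Lamp3 and Atp6v0d2. Hyal2, a further hyaluronidase, averaged 4.94 ± 0.449 and 3.94 ± 0.667 and was tested without being called (limma adjusted p = 0.0652).

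Regulators and partners of the lysosome outside the KEGG list were counted from lists of their own, against 24.7% lower and 33.7% higher over all genes tested. Of the MiT transcription factors, Mitf and Tfeb were lower in EXO with no overlap between groups. Mitf stood at 2.89, 3.99, 3.06 and 3.63 FPKM in EXO and 7.99, 8.87, 7.38 and 7.89 in LPS (-1.04 log2 with an SE of 0.12 and an adjusted p of 5.04e-06 by limma), and Tfec, a member found in macrophages and osteoclasts, at 0.106, 0.102, 0.0299 and 0.0539 and 1.2, 1.8, 1.68 and 1.6 (-1.25 log2 with an SE of 0.10 and an adjusted p of 3.54e-07 by limma). Tfec passed the filter through its LPS libraries alone, so it could be tested only as a gene high there. Tfeb averaged 1.09 ± 0.112 and 1.76 ± 0.231, close to the filter, and was called lower (log2 fold change -0.39, limma adjusted p = 0.00465). Tfe3, named after its values were seen, averaged 18.2 ± 2.51 and 22.5 ± 1.58 with overlapping groups (log2 fold change -0.30, limma adjusted p = 0.0406). Its call was lost with EXO replicate 1, 2 or 4 or LPS replicate 1 or 3 left out (limma adjusted p from 0.0825 to 0.11), with EXO replicate 2 and LPS replicate 4 both left out (0.108) and with all genes tested (0.0561).

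Of the ion channels, progranulin and further lysosomal proteins, 10 of 14 tested (71.4%) were lower and 1 (7.14%) was higher. The median was -0.68, and all genes tested gave 24.7% lower and 33.7% higher. Mcoln2, a paralog of Mcoln1, stood at 3.03, 3.92, 3.33 and 4.07 FPKM in EXO and 21.8, 32.6, 26.9 and 27.3 in LPS, where the mean was 7.58 times as high (-2.61 log2 with an SE of 0.13 and an adjusted p of 7.59e-09 by limma). Clcn7, the chloride-proton exchanger, averaged 6.64 ± 1.06 and 22 ± 2.56, and Tpcn1, a cation channel, 5.06 ± 0.551 and 13.1 ± 0.797, both lower. Of 17 tested genes of the amino acid sensing Ragulator, Rag GTPase, folliculin and mTORC1 complexes, 5 (29.4%) were lower, near the share over all genes, and 3 (17.6%) higher, with a median of -0.04. Rragc averaged 39.6 ± 3.61 and 61.8 ± 2.27 and Fnip1 5.54 ± 0.842 and 8.7 ± 1.14, both lower, and Mtor 6.73 ± 0.448 and 4.59 ± 0.561, higher.

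Of 11 HOPS, CORVET and Rab7 genes, 2 (18.2%) were lower, 1 (9.09%) was higher and 8 were not called (median 0.02). Both shares lay below those over all genes tested, 24.7% lower and 33.7% higher. Rab7b averaged 14.6 ± 2.84 and 27.3 ± 0.71 and Vps41 5.69 ± 0.556 and 7.61 ± 0.606, both lower. Vps39, at 14.3 ± 0.924 and 11.5 ± 1.21, was called higher (limma adjusted p = 0.0367), a call lost under rescaling, with the replicate block and with EXO replicate 2, 3 or 4 or LPS replicate 1 or 2 left out (limma adjusted p from 0.0558 to 0.105). Of 12 tested genes of BORC, Arl8 and lysosome movement, 7 (58.3%) were lower and 1 (8.33%) higher (median -0.34). BORC and Arl8 link lysosomes to kinesin. Borcs5 averaged 3.5 ± 0.183 and 1.75 ± 0.554 and rose, and Snapin averaged 40.3 ± 4.27 and 60.2 ± 9.66 and Plekhm1 7.79 ± 1.44 and 11.8 ± 0.702, both lower.

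**Figure D5:**
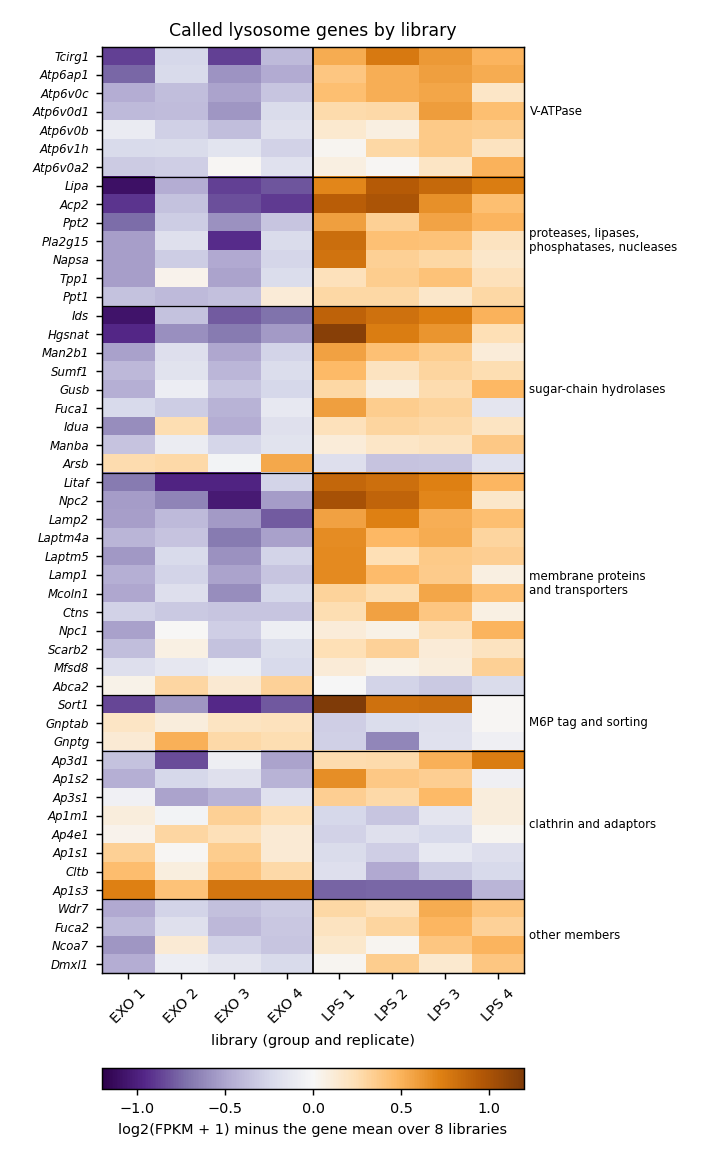
Colours give, for 50 called lysosome genes (rows, grouped by role) in each of the 8 libraries (columns), log2(FPKM + 1) minus the gene's mean over the libraries; orange is above the mean and purple below. Rows such as Npc2, Hgsnat and Sort1 are palest in LPS 4 among the LPS columns, and rows such as Lipa and Ids palest in EXO 2 among the EXO columns.

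Libraries of a group were not alike for these genes. The counts by library below were not made over all genes tested. They therefore do not show a trait particular to the lysosome genes. EXO replicate 2 held the highest EXO value in 42 of the 84 tested genes and EXO replicate 1 the lowest in 37. On the macrophage marker Adgre1, EXO replicate 2 stood at 221 FPKM and the other EXO libraries at 89.3 to 103. LPS replicate 4 was the lowest LPS library in 32 of the 84 tested genes and the highest in 25. LPS replicate 2 was the lowest in 30. LPS replicate 4 was lowest in 11 of 17 genes of sugar chain degradation and in 6 of 10 proteases, lipases, phosphatases and nucleases. Among V-ATPase genes it was lowest in 2 of 8. It was the highest LPS library in 8 of 22 clathrin and adaptor genes and in 4 of 5 tagging and sorting genes. The macrophage markers Lyz2 and Csf1r were also lowest in LPS replicate 4, at 5859 and 259 FPKM. The other LPS libraries held 8580 to 14935 and 316 to 425. Cd14, Tyrobp, Fcer1g, Mertk, Cd68 and Spi1 were lowest in LPS replicate 4 too. Fcgr1 was highest in that library, and Adgre1, Ptprc and Itgam lay between the other LPS values. With EXO replicate 2 and LPS replicate 4 both left out there were 44 lower and 12 higher lysosome genes.

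The lysosomal genes left out by the rule were not tested against the members, and their counts come from the same fit. Over all genes in that fit, 24.7% were lower and 33.7% higher. Of 10 tested cathepsins 6 were lower and 1 was higher, with a median of -0.86. Of 12 tested genes shared with sphingolipid metabolism 9 were lower and none higher, with a median of -0.43.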

How the data were processed

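RNA was sequenced from 8 libraries, 4 EXO and 4 LPS, grouped by their titles. TRIzol served for RNA extraction and a VAHTS kit for the libraries, per the labels' protocols. The aligner HISAT2 and the build GRCm39 (mm39) appear in the submitters' processing notes, and for the counting tool, strand setting and annotation the record is silent: not given in the sources used here. One table was deposited, with a value per gene and library, and these deposited values are taken as FPKM. The header names no unit; FPKM was inferred from steps in the values, which gave whole fragment numbers for all 17645 detected genes (tolerance 0.02). Recovered totals were 37061891 to 40641319 fragments per library. Nothing says that replicates were separate cultures, so p-values measure only the spread between these libraries, which may be technical.

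The groups were compared on log2(FPKM + 1) by limma 3.58.1 in R 4.3.3 (trended, robust variances) over the 9812 genes that reached 1 FPKM in 4 or more libraries. The test was two-sided, with Benjamini-Hochberg adjustment over all of them and a threshold of 0.05. The fit was tried on simulated data with 200 changed genes. In the data 58.4% of the genes tested were called, so the simulation does not match that setting. Members and lists were chosen with earlier results of these data known. Genes named are the 4 members of each role with the smallest p, the 6 highest and 6 lowest called fold changes, the a and d subunits of the V-ATPase, the 5 highest levels, and up to 3 genes of each other list. The values of 3 members are not reported here and are not drawn, though they enter the counts. Further genes were named after their values were seen or for a motif. Exon overlap came from GENCODE M21 and promoters from RefSeq, both of GRCm38 and not the authors' build, so no coordinate of theirs was joined to these values. Alternatives were another pseudocount, other filters, rescaling, voom on recovered fragments, a replicate block, no trend, and leaving out libraries. Exact permutation tests of the 3 paralog shares were also run, but since the shares were chosen after their values were seen, no p-value is given for them.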

Additional observations from a re-analysis of the deposited data

Results flagged for a closer look

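In groups of 4 libraries, a value was picked out where its gap to the nearest other library exceeded Dixon's critical share of the group's range. Of 112 groups examined, 7 met this, and chance alone picks about 1 in 20. Acp2 stood at 12.4 FPKM in EXO replicate 2 and at 8.11 to 8.68 in the other EXO libraries. M6pr stood at 169 in EXO replicate 2 against 131 to 136. Ap1s3 stood at 20.3 in EXO replicate 2 against 25.4 to 26.4, and at 10.9 in LPS replicate 4 against 8.4 to 8.46. Atp6v0a1 stood at 10.1 in EXO replicate 4 against 7.59 to 7.78. Outside the KEGG list, Atp6v1a stood at 99.2 in LPS replicate 1 against 122 to 127, and Atp6v1e1 at 141 in LPS replicate 4 against 198 to 211.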

How the results depend on the processing

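The counts of 44 lower and 9 higher lysosome genes stayed within 38 to 51 and 6 to 12 under every alternative run. Leaving out 1 library at a time gave 40 to 46 lower and 8 to 11 higher. With the replicate number as a block they were 44 and 9, 43 and 9 of them shared with the reported calls. Of the named genes given here, the block changed the calls of Dnase2a and Vps39. The labels do not say whether the numbers pair the libraries. Deviations of same-numbered libraries correlated at 0.05, 0.17, -0.29 and -0.11, which cannot decide it, since a shared origin can leave little trace. Median-of-ratios rescaling gave 51 lower and 8 higher, and voom on recovered fragments 45 and 10. Over all genes, rescaling turned the balance from 3310 higher and 2422 lower to 2891 and 2925. The median log2 fold change of the lysosome genes ranged from -0.49 to -0.35, except that without a filter on low values it was -0.23 over 97 genes, which adds genes near 0 FPKM. Alternative values were compared over 94 named or called lysosomal genes and the 3 paralog shares. Of 1510, 1436 stayed the same, 39 lost a call and 20 gained one. For a gene, the same means an unchanged direction and status, called or not called. A share has no call, and for it the same means a difference that moved by less than the larger group SD. Calls were gained by Dnase2a, Ap3s2, Laptm4b, Nagpa, Sgsh, Cd164, Hyal2 and Cln3, each under some of the alternatives. Signs turned for genes not called. Atp6v0a1 turned under rescaling (-0.08) and ranged from -0.144 to 0.228 with libraries left out, with -0.082 without EXO replicate 4 and -0.085 without LPS replicate 2. Gga1 turned under rescaling (-0.049). With libraries left out, Gga1, Gga2, Gaa, Naglu, Dmxl2 and Slc17a5 crossed 0 as well, Gga1 from -0.005 to 0.085, Gga2 from -0.097 to 0.034, Gaa from -0.177 to 0.014, Naglu from -0.054 to 0.256, Dmxl2 from -0.099 to 0.025 and Slc17a5 from -0.142 to 0.022. The cause was not tested. Members below the filter were tested only without it, where Atp6v0d2 and Entpd4b were called lower on at most 129 and 6 fragments. Ap4s1, also below the filter, rested on 521 to 802 fragments per library.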
